A study of Rattus norvegicus with 6 samples.

Results

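Microglia can make superoxide through the phagocyte NADPH oxidase and remove it, and the hydrogen peroxide that follows from it, through a set of antioxidant enzymes. The 9 genes described here were taken by name from the 23139 genes of the count tables. They comprise 4 oxidase genes (Cybb, Cyba, Ncf1, Ncf4), 2 superoxide dismutase genes (Sod1, Sod2) and 3 genes of peroxide removal (Cat, Gpx1, Prdx1). All 9 were listed and passed the filter on low counts. Primary cortical microglia of Wistar rats (postnatal day 1), shaken off mixed cultures and enriched with CD11b/c beads, were stimulated with lipopolysaccharide (LPS, 100 ng/mL), a bacterial cell wall component that activates microglia. Cells received LPS with DMSO, the solvent of the drug (LPS), or LPS with 50 µM siponimod, a sphingosine 1-phosphate receptor modulator (LPS/siponimod), and 3 replicates of each were sequenced as mRNA. How long the sequenced cells were stimulated is not given in the sources used here. LPS was common to both groups, and neither unstimulated cells nor siponimod alone are among the 6 libraries. Total counts were 39484979, 38301365 and 38080379 in LPS replicates 1 to 3 and 46643859, 43336006 and 38857441 in LPS/siponimod replicates 1 to 3.

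In the oxidase, the products of Cybb and Cyba form the membrane-bound flavocytochrome that carries electrons from NADPH to oxygen. The products of Ncf1 and Ncf4 wait in the cytosol and join the membrane part upon activation, together with a Rac GTPase. Superoxide is converted to hydrogen peroxide by the dismutases, of which Sod1 is mainly cytosolic and Sod2 mitochondrial. Catalase (Cat), glutathione peroxidase 1 (Gpx1, a selenoenzyme) and peroxiredoxin 1 (Prdx1) break the peroxide down. Sod2 is a well-known target of inflammatory signalling, whereas Prdx1 belongs to the genes known to respond to the oxidant-sensing factor NRF2.

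LPS replicate 3 and, to a lesser degree, LPS/siponimod replicate 3 stood apart from the other libraries of their groups in transcripts of other cell types. Over all tested genes the log2 normalized counts of LPS replicate 3 correlated with those of LPS replicates 1 and 2 at 0.935 and 0.945, whereas these 2 correlated at 0.983. It held 515 counts of Olig1, a transcription factor gene of the oligodendrocyte lineage, against 1 and 5 in the other LPS libraries and 2, 3 and 17 with LPS/siponimod. LPS/siponimod replicate 3 held 115 counts of the neuronal Map2 and 81 of Pdgfra, a gene of oligodendrocyte precursors, against at most 4 of either in LPS/siponimod replicates 1 and 2, while LPS replicate 3 held 162 and 284. Leaving out LPS replicate 3 alone therefore keeps such transcripts in the other group, and pairs 1 and 2 alone leave out both libraries. Values without LPS replicate 3 are therefore given for each of the 9 genes, and for the DEGs and changed calls of the lists of further genes.

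Of the defining markers of microglia, all 12 of the list had counts in each library, though Cx3cr1 had only 3 to 202. Their summed level was 9996, 8312 and 5642 CPM (counts scaled to a common library size) with LPS and 4304, 5413 and 3136 CPM with LPS/siponimod, with no overlap between the groups. Csf1r, the receptor of a microglial survival factor, had the highest mean CPM over the 6 libraries, with Cd68 above it in the mean of LPS/siponimod and Itgam in LPS replicate 3. Aif1 (log2 FC -1.88), Itgam (-0.87) and Cx3cr1 (-3.65) were downregulated DEGs, that is, differentially expressed genes with an adjusted p of at most 0.05 in edgeR's quasi-likelihood test and a fold change of at least 1.5 between the groups. With a library left out Aif1 and Cx3cr1 each passed in 2 and Itgam in 3 of the 6 fits, the log2 FC of Cx3cr1 running from -5.01 to -2.71 and that of Aif1 from -2.45 to -1.60, and none of the 3 passed in pairs 1 and 2 alone (adjusted p = 0.0630, 0.0595 and 0.0527 for Cx3cr1, Aif1 and Itgam). These 3 of 12 stand beside 25.3% of all 11977 genes tested. The other 9 did not pass, with Cd68 (0.00) and Ptprc (-0.02) close to 0. With the replicate number as a further term of the model (block, described below), 8 of the 12 were DEGs, 7 of them downregulated, against 34.0% of all genes in the same model. In bulk RNA, fewer cells of a type and less RNA per cell cannot be told apart. Neutrophils also use this oxidase, and of their markers Mpo, Elane and Ltf had no count in any library, while Csf3r (log2 FC -2.65, adjusted p = 0.0570, a DEG with the block) had the highest mean CPM of that list of 7, whose summed levels were 237, 205 and 81.5 CPM against 23.5, 54.1 and 6.34 CPM. Of the 3 tested genes of that list the only DEG was S100a8, a calprotectin subunit gene, against 25.3% of all genes. It had 70, 65 and 105 counts in LPS replicates 1 to 3 compared with 1, 12 and 10 under siponimod (log2 FC -3.57, adjusted p = 0.0219). For the lymphocyte list the sum was at most 2.70 CPM and led by Cd8a, and Cd3e was at 0. The endothelial and mural list summed to 155, 202 and 81.5 CPM with LPS and 36.2, 78.3 and 24.7 CPM with LPS/siponimod, led by Cdh5, with Kdr and Rgs5 at 0. The oligodendrocyte lineage list summed to 5.34, 5.37 and 36.0 CPM with LPS and 11.4, 10.3 and 22.6 CPM with LPS/siponimod, with Olig1 highest in LPS replicate 3 and Mbp, a myelin gene, in the mean over the libraries. The neuron list (Tubb3) reached at most 16.9 CPM, the fibroblast list (Dcn) 11.7 CPM and the astrocyte list (Slc1a3) 57.7 CPM. From these lists 3 genes were upregulated DEGs, Mbp (3.49 CPM with LPS and 11.6 CPM with LPS/siponimod on average, log2 FC 1.74, adjusted p = 0.0172), the neuronal Snap25 (0, 1 and 1 counts against 94, 153 and 81, adjusted p = 0.00539) and the matrix gene Dcn (3, 0 and 4 counts against 456, 49 and 178, adjusted p = 0.0155). They were 1 of 3 tested genes of the oligodendrocyte lineage list, 1 of 2 of the neuron list and 1 of 4 of the fibroblast list. No gene of the astrocyte, endothelial and mural or lymphocyte list was a DEG, with 3, 3 and 1 tested. Of all genes tested 13.6% were upregulated DEGs. With the block Tubb3 (log2 FC 1.59, adjusted p = 0.0316) and the endothelial Pecam1 (-2.40, 0.00966) and Cdh5 (-1.48, 0.0142) were DEGs as well, against 34.0% of all genes in that model. The part of all these marker values in the results below was not tested.

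The promoters of the genes that carry the results differ in composition. The 250 bases before the annotated RefSeq start (build GRCr8) are shown for Cybb, Sod2 and Gpx1, which had the lowest log2 FCs of the 9, and for Prdx1 as a gene with a fold change near 1, and 8 of the 9 genes had an entry. Capitals mark, on either strand, the PU.1 core GAGGAA, the CCAAT box CCAAT, the GC box GGGCGG, the antioxidant response element TGACNNNGC and the interferon-stimulated response element GAAANNGAAA. The Cybb window lies at chrX:16065066-16065315 (minus strand), that of Sod2 at chr1:50050169-50050418 (minus strand), that of Gpx1 at chr8:117905212-117905461 (plus strand) and that of Prdx1 at chr5:135383656-135383905 (plus strand), each written from 5′ to 3′ of its own gene.
Cybb: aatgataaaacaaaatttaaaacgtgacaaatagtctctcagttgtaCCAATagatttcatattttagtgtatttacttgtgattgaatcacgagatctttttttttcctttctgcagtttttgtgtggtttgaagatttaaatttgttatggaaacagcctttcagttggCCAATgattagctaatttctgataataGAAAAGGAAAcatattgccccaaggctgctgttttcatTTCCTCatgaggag
Sod2: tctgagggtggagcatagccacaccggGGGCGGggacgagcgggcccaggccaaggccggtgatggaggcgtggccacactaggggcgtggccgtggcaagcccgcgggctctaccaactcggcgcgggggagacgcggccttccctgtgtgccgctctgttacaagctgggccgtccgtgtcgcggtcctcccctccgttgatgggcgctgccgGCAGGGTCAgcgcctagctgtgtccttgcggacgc
Gpx1: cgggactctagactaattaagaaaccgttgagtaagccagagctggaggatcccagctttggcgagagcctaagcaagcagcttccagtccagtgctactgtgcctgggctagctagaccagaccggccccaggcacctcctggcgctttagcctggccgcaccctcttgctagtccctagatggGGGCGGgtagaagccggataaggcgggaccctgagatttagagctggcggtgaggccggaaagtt
Prdx1: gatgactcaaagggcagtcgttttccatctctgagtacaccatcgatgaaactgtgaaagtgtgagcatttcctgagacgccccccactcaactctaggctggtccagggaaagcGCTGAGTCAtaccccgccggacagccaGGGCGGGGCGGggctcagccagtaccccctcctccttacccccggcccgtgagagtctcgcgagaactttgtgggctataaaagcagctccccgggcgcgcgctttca
The Cybb window was poor in G and C (32.0%), while those of Sod2, Gpx1 and Prdx1 held 71.6%, 59.2% and 60.0%. Cybb had 1 PU.1 core (shared by 23.3% of 33465 promoter windows of the same length), 2 CCAAT boxes (34.0%) and 1 interferon-stimulated response element (3.41%) and no GC box. Sod2 and Gpx1 each had 1 GC box (30.5%). Antioxidant response elements (10.1%) were matched once in Sod2, Ncf1 and Prdx1, and the match in Prdx1 reads GCTGAGTCA on the printed strand. The kappaB consensus, to which NF-kB binds, was matched in 3.54% of windows and in none of the 8 genes. Ncf1 also had 1 interferon-stimulated response element and 1 GC box, Cat had 4 CCAAT boxes and 1 PU.1 core that overlaps one of them, Sod1 had 1 CCAAT box and 1 GC box, and Cyba had 2 GC boxes. In Prdx1 the 2 GC boxes overlap by a base. These matches describe letters only, and binding was not measured.

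The question of the comparison was how siponimod changes the transcriptome of LPS-stimulated microglia. Of the 9 genes, 2 were DEGs, Sod2 and Gpx1, both lower with LPS/siponimod, and none was a DEG in the other direction. Over all 11977 genes tested, 25.3% were DEGs, 11.7% lower and 13.6% higher, so that 2 of 9 lies near the background of both directions and above that of lower genes, on few genes. Levels did not overlap between the groups for 3 of the 9 (Sod2, Gpx1 and Ncf4), all lower with LPS/siponimod. The same held for 24.0% of all genes tested, and another 25.3% were higher without overlap, which none of the 9 was. The median log2 FC was -0.27 for the 9 genes and -0.02 for all genes. Same-numbered libraries of the groups varied together. When the replicate number was added to the model as a block, 34.0% of all genes were DEGs, as were 3 of the 9, Cybb being the additional one. The log2 FCs of 6 of the genes were negative and those of 3 positive. The study's methods call the replicates biological and state, for its statistics, that n counts independent experiments, so that p-values measure the spread between such libraries.

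**Figure D1:**
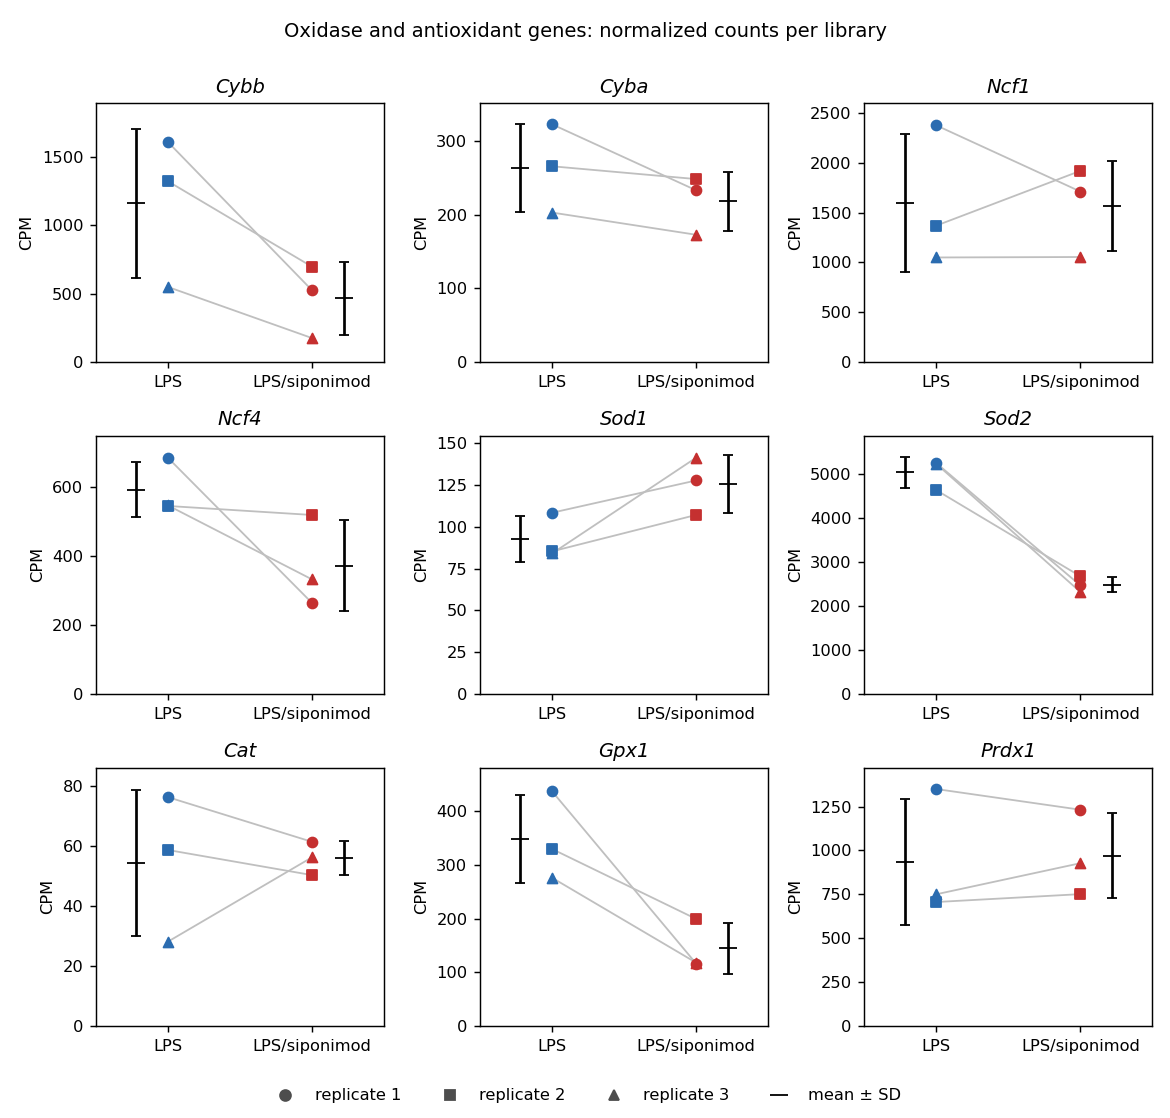
Normalized counts (CPM, linear axis from 0) of the 9 genes in each library, with LPS in blue and LPS/siponimod in red. Symbols give the replicate number, grey lines join same-numbered libraries, and black marks show the mean ± SD of 3 libraries. Sod2, Gpx1 and Ncf4 have no LPS/siponimod library at or above an LPS library.

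Among the oxidase genes, the membrane subunit Cybb stood lower with LPS/siponimod in each pair of same-numbered libraries. Cybb encodes gp91phox, the catalytic subunit that binds NADPH and passes the electrons on. Its level was 1610.5, 1323 and 549 CPM in LPS replicates 1 to 3 and 524, 697 and 175 CPM in LPS/siponimod replicates 1 to 3. Replicate 3 was the lowest library of either group, and LPS replicate 3 lay below LPS/siponimod replicate 2, so that the groups overlapped. The log2 FC was -1.32 ± 0.60 (SE), which did not pass (quasi-likelihood adjusted p = 0.142), with a 95% interval of -2.77 to 0.13. Within the pairs the differences were -1.62, -0.92 and -1.65 on the log2 scale. With the replicate block Cybb was a DEG (log2 FC -1.40 ± 0.22, adjusted p = 0.0108). With single libraries left out its log2 FC ran from -1.73 to -0.92, the latter without LPS/siponimod replicate 3 (adjusted p = 0.2497). Without LPS replicate 3 it was -1.66 (adjusted p = 0.0682), and in pairs 1 and 2 alone it was -1.26 (adjusted p = 0.0440).

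Cyba, which encodes p22phox, the partner that stabilises gp91phox in the membrane, differed less. It had 323, 266 and 203 CPM with LPS and 233, 248 and 173 CPM with LPS/siponimod. The groups overlapped, although each pair went down. Its log2 FC of -0.27 ± 0.23 (SE) did not pass (adjusted p = 0.389, interval -0.82 to 0.28), nor did it without LPS replicate 3 (-0.43, adjusted p = 0.146), without LPS replicate 1 (-0.09, adjusted p = 0.805) or with the block (-0.27, adjusted p = 0.184).

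Ncf1 encodes p47phox, the organiser that is phosphorylated when the oxidase is switched on. It counted 2376, 1369 and 1049 CPM with LPS against 1711, 1919 and 1054 CPM with LPS/siponimod. The pairs disagreed, replicate 1 being lower, replicate 2 higher and replicate 3 nearly equal. The log2 FC of -0.03 ± 0.38 (SE, adjusted p = 0.955) had an interval of -0.95 to 0.88, so that a change of nearly 2-fold in either direction could not have been told from 0 at this spread. Without LPS replicate 3 it was -0.26 (adjusted p = 0.597). Ncf4, encoding p40phox, which binds phosphoinositides at the phagosome, had 686, 546 and 548 CPM with LPS and 264, 520.1 and 333 CPM with LPS/siponimod. All 3 LPS libraries lay above all 3 LPS/siponimod libraries, but in pair 2 the difference was only -0.07 on the log2 scale, against -1.38 and -0.72 in pairs 1 and 3. Its log2 FC of -0.67 ± 0.28 (SE) did not pass (adjusted p = 0.114). It did without LPS/siponimod replicate 2 (-0.999, adjusted p = 0.0260), and not without LPS replicate 3 (-0.72, adjusted p = 0.126) or with the block (-0.72, adjusted p = 0.10).

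**Figure D2:**
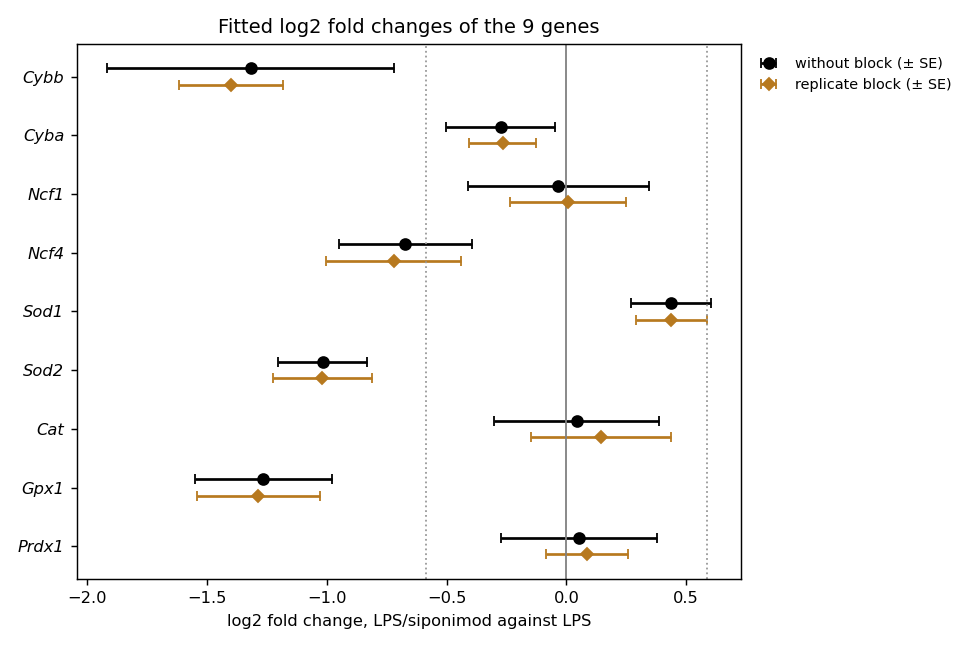
Fitted log2 fold change of each of the 9 genes (x axis, LPS/siponimod against LPS, 6 libraries), with bars of 1 SE. Black circles show the unblocked and ochre diamonds the blocked model (replicate number), and dotted lines mark a fold change of 1.5. The SE of Cybb shrinks from 0.60 to 0.22 with the block, while its estimate stays near -1.4.

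Of the 2 dismutase genes, Sod2 was lower with LPS/siponimod and Sod1 did not pass. Sod2, the mitochondrial manganese enzyme, had 5258, 4642.5 and 5241 CPM with LPS and 2472.5, 2681 and 2323 CPM with LPS/siponimod. The libraries of each group lay close together and the groups were far apart, the SD being 350 CPM around a mean of 5047 CPM with LPS and 179.8 CPM around 2492 CPM with LPS/siponimod. Sod2 fell by 1.02 on the log2 scale (SE 0.19, quasi-likelihood adjusted p = 0.0145, interval -1.47 to -0.56), with -1.09, -0.79 and -1.17 in the 3 pairs. Without LPS replicate 3 it remained a DEG (-0.99, adjusted p = 0.0245). It was no longer one when LPS/siponimod replicate 1 (adjusted p = 0.0723), LPS replicate 2 (0.0547) or LPS/siponimod replicate 3 (0.0731) was left out, nor in pairs 1 and 2 alone (-0.94, 0.0902). Sod1, the copper and zinc enzyme, had 108, 85.3 and 84.0 CPM with LPS and 128, 107 and 141 CPM with LPS/siponimod. It was higher in each pair, and the groups overlapped only through LPS replicate 1 and LPS/siponimod replicate 2. Its log2 FC was 0.44 ± 0.17 (SE, adjusted p = 0.0933, interval 0.04 to 0.84), and it did not pass without LPS replicate 3 (0.38, adjusted p = 0.162) or with the block (0.44, adjusted p = 0.0717).

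Within a library the ratio of 2 genes does not depend on the scaling, and 5 such ratios were compared. The log2 ratio of Sod2 to Sod1 counts was 5.60, 5.77 and 5.96 for LPS, compared with 4.28, 4.65 and 4.04 for LPS/siponimod, a difference of -1.46 without overlap. An exact two-sided permutation test gave p = 0.10, the smallest that 3 against 3 allows, and 0.25 when adjusted over the 5 ratios. For Gpx1 to Cat the values were 2.52, 2.49 and 3.30 against 0.92, 1.99 and 1.07, again without overlap (difference -1.44, exact p = 0.10, adjusted 0.25). Cybb to Cyba was lower (-1.15, -0.83 and -1.42) and Ncf1 to Ncf4 higher (0.90, 0.56 and 0.73) in each pair, but in both the groups overlapped (differences -1.13 and 0.73, exact p = 0.20 and adjusted 0.25 each). Prdx1 to Cat differed by -0.07 (exact p = 0.90, adjusted 0.90). None of the 5 could pass 0.05 in this test, which does not use the pairing. Taken as the mean over pairs, the SE of the difference was 0.17 for Cybb to Cyba, 0.10 for Ncf1 to Ncf4, 0.24 for Sod2 to Sod1, 0.50 for Gpx1 to Cat and 0.32 for Prdx1 to Cat.

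**Figure D3:**
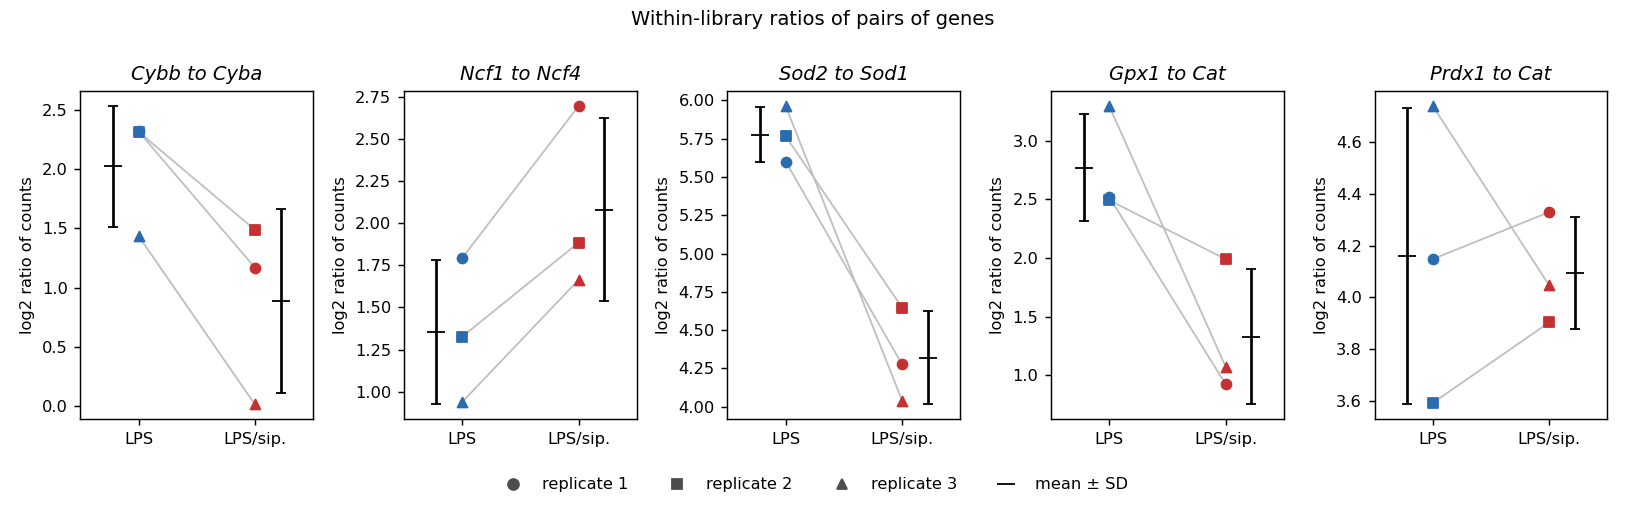
Log2 ratio of the counts of 2 genes within each library (y axis, a separate scale in each panel that does not start at 0), for LPS (blue) and LPS/siponimod (red, LPS/sip.). Symbols mark the replicate number, lines join same-numbered libraries and black marks show the mean ± SD of 3 libraries. The groups are apart for Sod2 to Sod1 and Gpx1 to Cat and overlap in the other panels.

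Of the genes of peroxide removal, Gpx1 was lower with LPS/siponimod, and Cat and Prdx1 had fold changes near 1. Gpx1 reduces hydrogen peroxide with glutathione. It had 437, 329.8 and 276 CPM with LPS and 116, 199.5 and 118 CPM with LPS/siponimod. The highest LPS/siponimod library lay below the lowest LPS library. Gpx1 fell by 1.27 on the log2 scale (SE 0.29, quasi-likelihood adjusted p = 0.0247, interval -1.96 to -0.57), and by pair the log2 differences were -1.91, -0.72 and -1.23. Without LPS replicate 3 the log2 FC was -1.41 (adjusted p = 0.0228). The call was lost without LPS replicate 1 (adjusted p = 0.0679), LPS/siponimod replicate 1 (0.107), LPS replicate 2 (0.0831) or LPS/siponimod replicate 3 (0.0861), and in pairs 1 and 2 alone (-1.28, 0.0595).

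Cat, the peroxisomal enzyme that acts at high peroxide, had 76.1, 58.6 and 28.1 CPM with LPS and 61.3, 50.2 and 56.2 CPM with LPS/siponimod. LPS replicate 3 was the lowest of all 6 libraries and LPS replicate 1 the highest. The log2 FC of 0.04 ± 0.35 (SE, adjusted p = 0.939, interval -0.79 to 0.88) turned to -0.27 without LPS replicate 3 (adjusted p = 0.238), since pairs 1 and 2 went down (-0.31 and -0.22) and pair 3 up (1.00). Prdx1, a thioredoxin-dependent peroxidase of the cytosol, had 1349.8, 707 and 751 CPM with LPS and 1232, 752 and 928 CPM with LPS/siponimod. Replicate 1 was the highest library in either group. The log2 FC was 0.05 ± 0.33 (SE, adjusted p = 0.917, interval -0.73 to 0.84), and -0.08 without LPS replicate 3 (adjusted p = 0.876). RefSeq lists pseudogenes of Prdx1 and of Sod2, and how reads shared with such copies were counted is not stated, so that the values of both genes carry this uncertainty.

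By the root mean square difference of centred log2 CPM over the 6 libraries, the gene most like Cybb was Fcgr3a (0.17, log2 FC -1.19), which encodes an Fc receptor for IgG. It was followed by a gene listed only by an Ensembl identifier and present at 0.38 CPM (0.21) and by AB124611 (0.21, log2 FC -1.38). The genes most like Sod2 were Cox6b1 (0.07, log2 FC -1.01), which encodes a subunit of cytochrome c oxidase, Tspan3 (0.07, -0.94), a tetraspanin gene, and Ap2a2 (0.08, -0.97), a gene of the clathrin adaptor complex.

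The remaining genes of the pathway were taken from 5 lists of well-known members. Of 17 other oxidase genes 8 were tested. Prkcb, encoding a protein kinase C isoform that phosphorylates p47phox, was the only DEG, against 25.3% of all genes (270, 352 and 395 CPM with LPS, 98.7, 223 and 120 CPM with LPS/siponimod, log2 FC -1.20 ± 0.34, adjusted p = 0.0431). It passed in 1 of the 6 fits that left out a library, the one without LPS/siponimod replicate 2, and without LPS replicate 3 (-1.08, adjusted p = 0.0741) or in pairs 1 and 2 alone (-0.95, adjusted p = 0.168) it did not pass. For Rac2, the Rac GTPase of haematopoietic cells and microglia, the log2 FC was -0.49 ± 0.22 (adjusted p = 0.144) and for Hvcn1, the proton channel that balances the charge, 0.76 ± 0.59 (adjusted p = 0.357, from 0.33 without LPS replicate 3 to 1.35 with another library left out). The median log2 FC of the 8 genes was -0.10. Among the other catalytic subunits, Nox3 and Nox4 had no count in any library, which allows up to 0.0788 CPM at 3 counts in the shallowest library. Nox1, Duox1 and Duox2 and the accessory genes Noxo1, Noxa1, Duoxa1 and Duoxa2 had at most 14 counts in any library and were not tested. Such limits cover counting error only.

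Of 2 further dismutase genes, Sod3 had at most 6 counts and was not tested, and Ccs, the copper chaperone of Sod1, was not a DEG (log2 FC -0.48 ± 0.26, adjusted p = 0.202). It became one without LPS replicate 3 (-0.70, adjusted p = 0.0257).

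Among 23 other peroxidase, thioredoxin and glutaredoxin genes, 17 were tested, of which 1 was an upregulated and 3 were downregulated DEGs and 13 did not pass, with a median log2 FC of -0.20, and these 4 of 17 lie near the 25.3% of all genes. Without LPS replicate 3 all 4 stayed DEGs, with log2 FCs of -1.39 for Prdx2, -1.60 for Glrx, -0.89 for Txnip and 0.70 for Gpx4. Prdx2, a cytosolic peroxiredoxin, had 241, 215 and 199.7 CPM with LPS and 75.7, 105 and 80.0 CPM with LPS/siponimod (log2 FC -1.33 ± 0.17, adjusted p = 0.00733), and stayed a DEG in all 6 fits without a library (adjusted p from 0.00758 to 0.0432) and in pairs 1 and 2 alone. Glrx, the cytosolic glutaredoxin, had 1285, 779 and 1484 CPM with LPS and 316, 343 and 363 CPM with LPS/siponimod (log2 FC -1.80 ± 0.27, adjusted p = 0.00937) and stayed a DEG except without LPS/siponimod replicate 1 (adjusted p = 0.0502). Txnip, an inhibitor of thioredoxin, fell less (log2 FC -0.78 ± 0.22, adjusted p = 0.0451) and passed in 1 of the 6 fits. Gpx4, a selenoenzyme that reduces lipid peroxides, had 64.2, 45.2 and 32.9 CPM with LPS and 91.2, 78.7 and 96.4 CPM with LPS/siponimod (log2 FC 0.90 ± 0.25, adjusted p = 0.0412). It passed in 2 of the 6 fits and not in pairs 1 and 2 alone (0.64, adjusted p = 0.0977). Gpx1 and Prdx2 were thus lower, and Gpx4 higher, with LPS/siponimod, while Prdx1 (0.05) and Prdx5 (0.01) stayed near 0 on the log2 scale. The mitochondrial Prdx3 (0.52, adjusted p = 0.0269) and Txn2 (-0.43, adjusted p = 0.0434) had a sufficient p-value but a fold change under 1.5. In pairs 1 and 2 alone Prdx3 was a DEG (0.64, adjusted p = 0.0406). Without LPS replicate 3 its fold change stayed under 1.5 (0.56, adjusted p = 0.0256). Txnrd1, the cytosolic thioredoxin reductase, had a log2 FC of 0.12 (adjusted p = 0.516). Txnrd3 was a DEG with the block (0.78, adjusted p = 0.0219) and without LPS/siponimod replicate 2 (adjusted p = 0.0374). It was not one in all 6 libraries without the block (adjusted p = 0.0585) or without LPS replicate 3 (0.76, adjusted p = 0.0983). Gpx2, Gpx5, Gpx6 and Gpx7 were removed by the filter with at most 9 counts, and Gpx3 and Srxn1 were not analysed here.

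Of the 5 genes of glutathione supply, 2 were DEGs, both upregulated, with a median log2 FC of 0.55. Of all genes 25.3% were DEGs, 13.6% upregulated and 11.7% downregulated. Slc7a11, the cystine transporter, had 13.4, 6.80 and 58.6 CPM with LPS, where replicate 3 was the highest, and 659, 304 and 806 CPM with LPS/siponimod (log2 FC 4.49 ± 0.93, adjusted p = 0.0195). Gclm, the modifier subunit of the enzyme that starts glutathione synthesis, had 12.49, 9.003 and 15.0 CPM against 20.0, 20.3 and 24.3 CPM (log2 FC 0.82 ± 0.22, adjusted p = 0.0361). Both held in pairs 1 and 2 alone and without LPS replicate 3 (5.87 for Slc7a11 and 1.01 for Gclm). The call of Slc7a11 was lost in 4 and that of Gclm in 5 of the 6 fits without a library, with adjusted p-values up to 0.0723 and 0.112. Gclc, the catalytic subunit, had a log2 FC of -0.19 (adjusted p = 0.549, from -0.42 to -0.03 with a library left out), Gsr, the glutathione reductase, one of 0.18 (0.567, from -0.0033 to 0.33) and Gss, the synthetase, one of 0.55 (0.118), which became a DEG without LPS replicate 3 (0.77, 0.0383).

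Of 10 genes that supply NADPH, the electron donor of the oxidase and of the glutathione and thioredoxin reductases, 9 were tested. DEGs numbered 4, against 25.3% of all genes. The 3 upregulated DEGs were Idh1, a cytosolic dehydrogenase (218, 116 and 34.6 CPM with LPS, 582, 523 and 485 CPM with LPS/siponimod, log2 FC 2.11 ± 0.61, adjusted p = 0.0466), Me1, the cytosolic malic enzyme (log2 FC 1.57 ± 0.25, adjusted p = 0.0108), and Nadk2, the mitochondrial NAD kinase (2.07 ± 0.41, 0.0176). Nnt, the transhydrogenase of the inner mitochondrial membrane, was the downregulated DEG (154, 182 and 68.8 CPM with LPS, 35.6, 60.7 and 32.3 CPM with LPS/siponimod, log2 FC -1.65 ± 0.42, adjusted p = 0.0332). All 4 were DEGs in pairs 1 and 2 alone and without LPS replicate 3 (1.67, 1.41, 1.78 and -1.97), and their adjusted p-values with a library left out reached 0.157, 0.0598, 0.0815 and 0.135 in the order named. The log2 FC of Idh1 then ran from 1.67 to 2.83. With the block Nadk, the cytosolic NAD kinase (-0.59, adjusted p = 0.0213), and Me3 (-1.73, 0.0289) were added. Me3 was scarce, with 28, 40 and 8 counts in LPS replicates 1 to 3 and 10, 16 and 2 in those of LPS/siponimod. Me3 did not pass without LPS replicate 3 (-2.09, adjusted p = 0.0776). Without LPS replicate 3 Nadk (-0.74, adjusted p = 0.0308) and Idh2, a mitochondrial dehydrogenase (-1.07, 0.0118), were added, and Idh2 was also a DEG in pairs 1 and 2 alone (-1.07, 0.0341), against -0.72 (0.204) in all 6 libraries. Pgd, of the pentose phosphate pathway, had a log2 FC of 0.26 (adjusted p = 0.416, from 0.09 without LPS replicate 3 to 0.47 with another library left out), and the median of the 9 genes was 0.11.

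**Figure D4:**
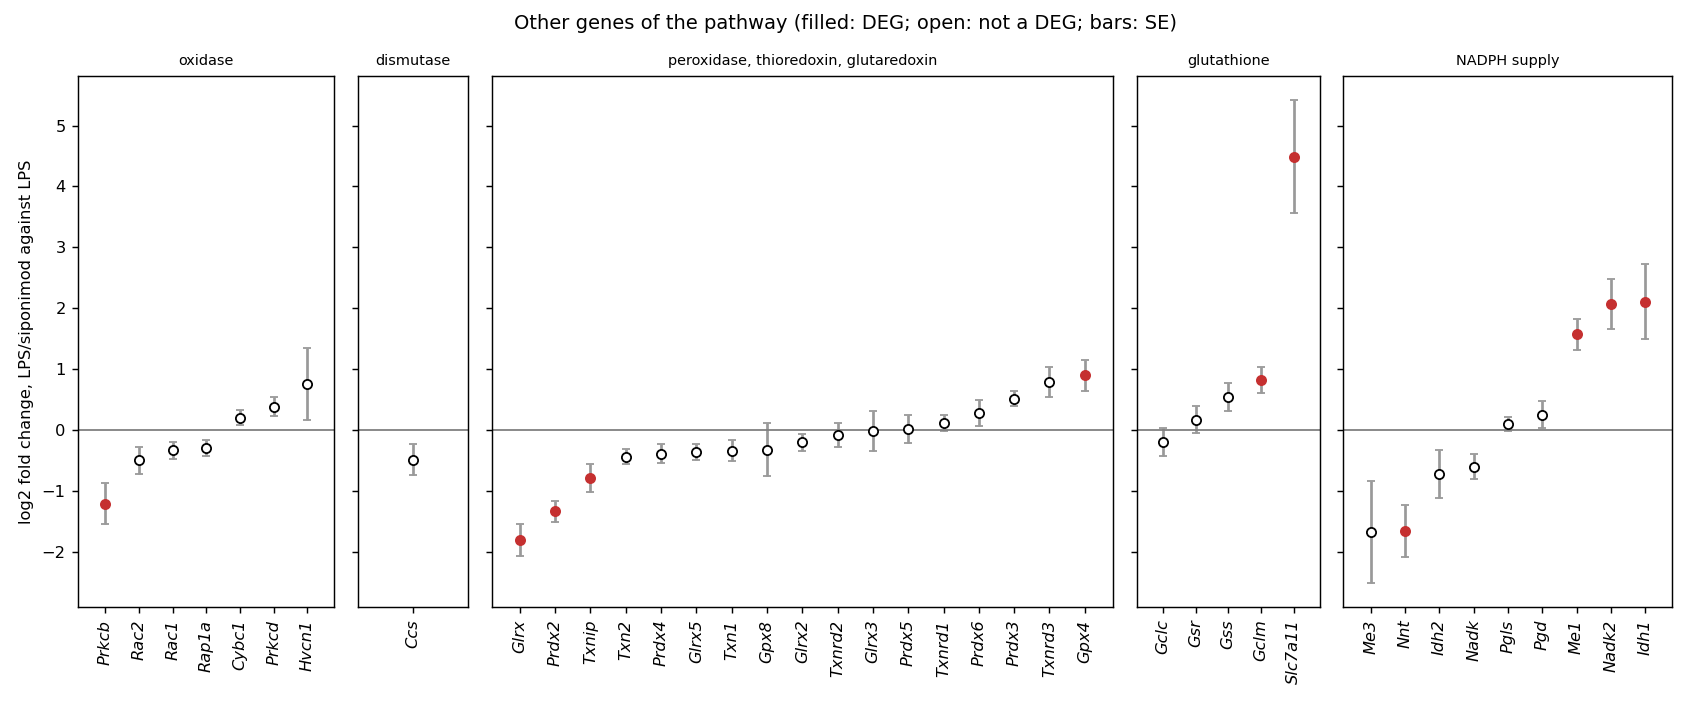
Log2 fold change (y axis, LPS/siponimod against LPS, 6 libraries) with bars of 1 SE for the tested genes of the 5 further lists (1 oxidase gene is not shown), ordered by value within each panel. Filled red points are DEGs and open points are not. Slc7a11 (4.49) is the highest point and Glrx (-1.80) the lowest.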

How the data were processed

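Total read counts per gene of 6 libraries (3 LPS, 3 LPS/siponimod, grouped and numbered by their titles) were deposited by the authors without normalization. Per the labels and the study's methods, reads were demultiplexed with bcl2fastq (2.20.0.422), trimmed, mapped to mRatBN7.2 and counted in CLC Genomics Workbench, and the treatment of strand and of reads with several matches is not given in the sources used here. A nameless row without counts in 1 table was left out. Counts were normalized with TMM (factors from 0.939 to 1.056), filtered with filterByExpr (minimum count 10, minimum total 15, 11977 of 23139 genes kept) and tested with edgeR 4.0.16 (glmQLFit, glmQLFTest) in R 4.3.3 with Benjamini-Hochberg adjustment over all genes. The SE is the log2 FC divided by the root of the F statistic, and a pair value is the log2 CPM (prior count 2) of LPS/siponimod less that of LPS. The procedure was tested on simulated counts of 11977 genes, of which 200 were changed 4-fold. The quasi-likelihood test recovered 138 of these 200 as DEGs and also called 14 unchanged genes.

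Deviations from the group mean correlated within same-numbered libraries (0.42, 0.55 and 0.61, at most 0.086 otherwise), and the replicate number was taken as pairing on this evidence. Alternatives were RLE scaling, DESeq2 1.42.0, limma-voom (limma 3.58.1), the likelihood ratio test, other filters, the block, single libraries left out and, chosen after seeing the data, pairs 1 and 2 alone. All 9 genes, every DEG of the pathway lists and the genes under the filter were to be named, and other list genes were named after their values were seen. Members and lists were chosen with earlier results of these data known. Promoter windows and motifs, also chosen then, come from RefSeq's GRCr8, another build than the mapping, and no positions of the counted genes are given. Gene lengths were not used, so that levels are set against each other only to name the highest CPM of a marker list. Some genes of the lists are counted but not reported here by name.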

Additional observations from a re-analysis of the deposited data

How the results depend on the processing

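Sod2 and Gpx1 were lower with LPS/siponimod under all 14 alternatives, and remained DEGs with RLE scaling, DESeq2, limma-voom, the likelihood ratio test, either other filter and the replicate block. Sets of fewer libraries changed calls. With 1 library left out the number of DEGs ran from 651 (without LPS replicate 2) to 3713 (without LPS replicate 3), the log2 FC of Cybb from -1.73 to -0.92, of Cyba from -0.43 to -0.09, of Sod1 from 0.35 to 0.58, of Sod2 from -1.08 to -0.97, of Gpx1 from -1.58 to -1.05 and of Ncf4 from -0.999 to -0.48. DEGs then numbered 0 to 1 among other oxidase genes and 0 to 1 among the further dismutase genes, of which only Ccs was tested. They numbered 1 to 4 among other peroxidase and thioredoxin genes, 0 to 3 in glutathione supply and 0 to 6 in NADPH supply. The log2 FC of Ncf1 ran from -0.26 to 0.38, of Cat from -0.27 to 0.38 and of Prdx1 from -0.16 to 0.43, with changes of sign. Ncf1 was also positive with limma-voom (0.0020) and the replicate block (0.0067). The block made Cybb a DEG (-1.40) and changed no other call among the 9 genes. In pairs 1 and 2 alone Cybb was a DEG (-1.26), Sod2 (-0.94) and Gpx1 (-1.28) were not, Cat (-0.27) and Prdx1 (-0.048) were negative, and 0 other oxidase genes were DEGs. With no filter DEGs numbered 0 among other oxidase genes and 2 among other peroxidase and thioredoxin genes. The number of DEGs was 2542 with no filter, 3898 with DESeq2, 4074 with the block and 2318 in pairs 1 and 2 alone, against 3036. Of the 5 ratios, 4 kept their direction and moved by less than 1 SD of either group, and Prdx1 to Cat ran from -0.35 to 0.22 with changes of sign. The cause was not tested. Depth did not limit the 9 genes, whose lowest count was 1045 (Cat in LPS replicate 3), but the Nox and Duox genes that were not tested had at most 14.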
